A study of Mus musculus with 8 samples.

Results

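The activins, BMPs, GDFs and follistatins are secreted proteins of the TGF-β superfamily and the proteins that bind them. The 10 genes described here were taken by gene name from the 55679 rows of the deposited expression table: the activin chains Inhba and Inhbb, the ligands Gdf15, Mstn, Bmp4, Bmp6 and Bmp10, and the follistatin family members Fst, Fstl1 and Fstl3. RNA-seq was performed on left ventricles of male wild-type C57BL/6J mice, in 8 libraries that the study calls biological replicates. The control group (4 libraries) received saline for 7 days, and the ANG II group (4 libraries) received angiotensin II at 1500 ng/kg/min for 7 days, both through an osmotic mini-pump under the skin. Angiotensin II is a peptide that constricts vessels and raises blood pressure, and its infusion is used as a model of hypertensive left ventricular hypertrophy. The mice carried no engineered allele. The ventricle was sequenced as whole tissue, in which fewer cells of a type and less RNA per cell cannot be told apart.

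Activins, BMPs and GDFs are made as precursors, cut by proteases and released as dimers. A dimer, other than that of GDF15 (described below), joins type I and type II receptor kinases on the target cell, which then phosphorylate Smad transcription factors. Activins and myostatin act mainly through Smad2 and Smad3, and BMPs through Smad1, Smad5 and Smad9. Follistatin and FSTL3 are secreted proteins that wrap around activins and myostatin and keep them from their receptors, so the balance of ligand and binding protein sets how much activin can signal. FSTL1 shares the follistatin domain but is a more distant relative that is made in quantity by mesenchymal cells. In the heart, these factors are known for roles in fibrosis, growth of the muscle wall and the response to injury.

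Fstl1, Inhba and Fstl3 had the largest fold changes of the 10 genes on log2(FPKM + 1), while by the ratio of mean FPKM Fst was level with Inhba (described below), and for that reason the 250 bases before their RefSeq transcription start are shown, 5′ to 3′ on the strand of the gene, in GRCm38.p6. The windows lie at chr13:16011601-16011850 on the plus strand for Inhba, at chr16:37776805-37777054 on the plus strand for Fstl1 and at chr10:79777024-79777273 on the plus strand for Fstl3. Capitals mark every match, on either strand, to the motifs searched.
Inhba: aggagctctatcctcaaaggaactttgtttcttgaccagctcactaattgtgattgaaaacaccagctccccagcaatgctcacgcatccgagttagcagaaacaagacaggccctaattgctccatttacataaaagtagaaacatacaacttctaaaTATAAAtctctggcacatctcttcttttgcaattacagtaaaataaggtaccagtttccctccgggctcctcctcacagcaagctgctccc
Fstl1: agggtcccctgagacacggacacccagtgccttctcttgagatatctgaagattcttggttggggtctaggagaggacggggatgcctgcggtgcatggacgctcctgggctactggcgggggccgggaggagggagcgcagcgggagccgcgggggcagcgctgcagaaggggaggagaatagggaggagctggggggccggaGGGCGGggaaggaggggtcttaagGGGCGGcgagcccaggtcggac
Fstl3: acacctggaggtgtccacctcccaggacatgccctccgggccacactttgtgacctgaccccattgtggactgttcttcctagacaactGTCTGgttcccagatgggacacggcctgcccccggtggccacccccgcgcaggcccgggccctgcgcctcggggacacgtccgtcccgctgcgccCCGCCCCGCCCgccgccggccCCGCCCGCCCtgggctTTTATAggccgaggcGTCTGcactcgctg
The motifs were the TATA box (TATAAA), the GC box bound by Sp1 (GGGCGG), the Smad box (CAGAC), the AP-1 site (TGANTCA), the cyclic AMP response element (TGACGTCA), the composite site of C/EBP and ATF factors (TGATGNAA) and the CArG box. The Inhba window was AT-rich, with a GC content of 43.2%, and its only match was a TATA box at -91 to -86 from the start. The Fstl1 window had a GC content of 68.0% and GC boxes beginning at -46 and -22. The Fstl3 window had a GC content of 71.2%, with 4 GC boxes in pairs that overlap each other, 2 Smad boxes and a TATA box at -29 to -24, all read on the minus strand. The median GC content over 32841 mouse windows of the same length was 52.4%. Of all windows, 32.7% held a GC box, 42.2% a Smad box and 12.4% a TATA box. RefSeq gave a window for 9 of the 10 genes, with Fst the exception. None of the 9 held a cyclic AMP response element, a C/EBP and ATF site or a CArG box, which 1.55%, 3.45% and 1.47% of all windows held, and an AP-1 site was present only before Mstn, against 6.75% of all windows.

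Levels are given in FPKM, the fragments of a gene per unit of transcript length and of sequencing depth. The steps of the low values gave back the fragment counts, and the libraries held 14455732 to 16567278 fragments each, with 12397 to 13298 genes at 1 FPKM or more. Transcripts encoded by the mitochondrial genome took 26.33 to 26.95% of the fragments in the control libraries and 19.23 to 21.84% in the ANG II libraries, so they moved with the group. The median log2 fold change over the 19364 genes tested was 0.15, and 0.05 when these transcripts and the 10 most abundant genes were left out of the scaling, and fold changes are to be read against it. Markers of the labelled tissue were abundant. The 7 cardiomyocyte genes summed to 33465 to 34415 FPKM in the control group and 24173 to 26280 FPKM in the ANG II group. The 7 skeletal muscle genes summed to 3.46 to 4.61 FPKM in the control group and 5.52 to 8.09 FPKM in the ANG II group, with Myh4 at 0 in every library and Tnnt3 called higher.

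Of the 10 genes, 8 reached a mean of 0.1 FPKM and were tested with limma on log2(FPKM + 1). A call needed a Benjamini-Hochberg adjusted p-value over all genes below 0.05 together with a log2 fold change beyond 0.5 in either direction. Inhba, Gdf15, Bmp4, Fst, Fstl1 and Fstl3 were called higher in the ANG II group, 0 were called lower (limma-voom also gave 0, and 0 were lower at an unadjusted p under 0.05), and Inhbb and Bmp6 did not pass. By the same rule 14.0% of all genes tested were called higher, 1.41% lower and 15.4% in either direction. The median log2 fold change of the 8 genes was 0.92. The genes were chosen with earlier results of these data known, so their share of calls can follow from the choice. In Inhba, Fst, Fstl1 and Fstl3, all ANG II libraries lay above all control libraries, a separation found in 28.7% of all genes tested.

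**Figure D1:**
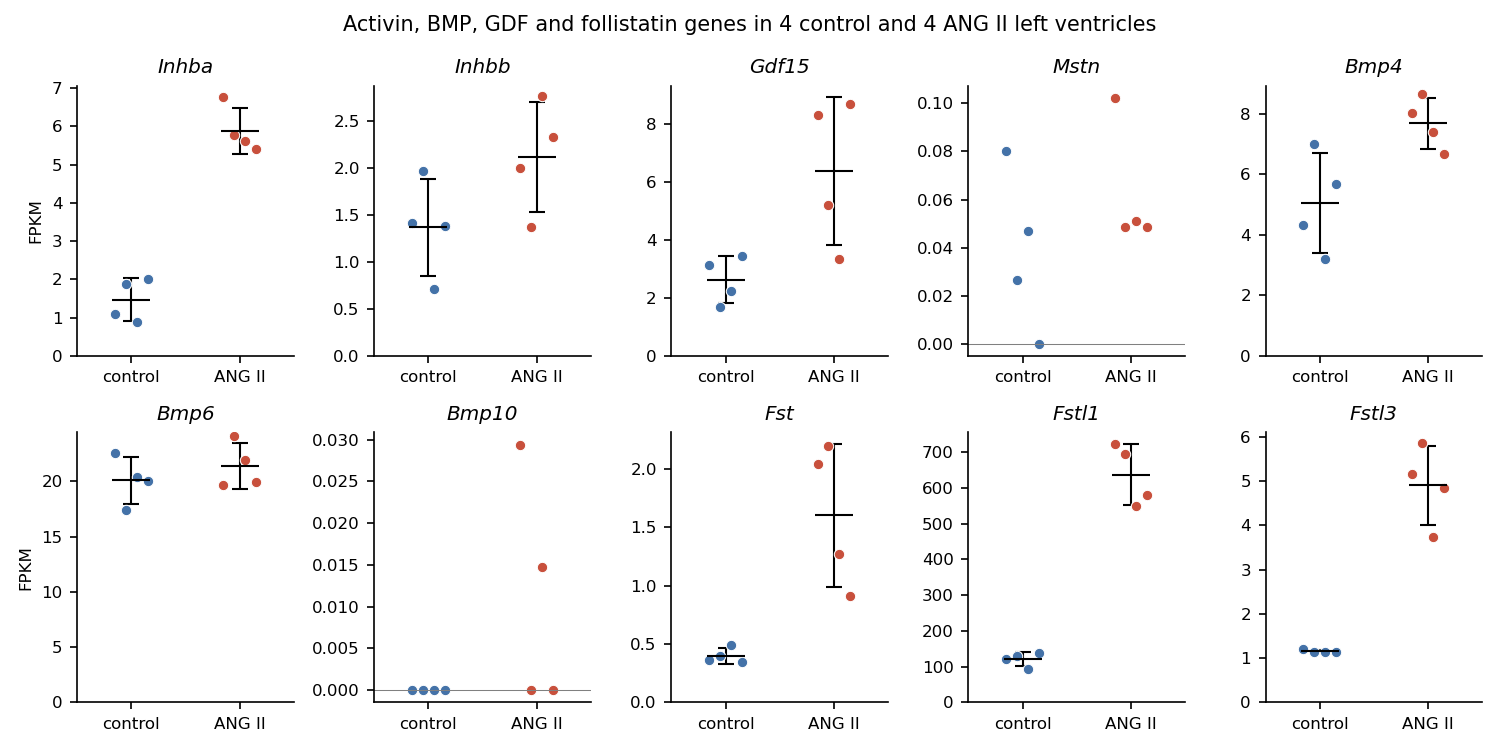
FPKM (vertical axis, linear, a separate scale for each gene) of the 10 genes in the 4 control (blue) and 4 ANG II (red) libraries. Points are libraries, and bars are the mean ± SD, left out for Mstn and Bmp10, which had 0 to 4 fragments per library. The groups stand apart in Inhba, Fst, Fstl1 and Fstl3 and overlap in the other genes.

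Inhba encodes the βA chain, which forms activin A as a homodimer, and lies on chromosome 13 (GRCm38, 16011851 to 16031621, plus strand). Its level was 1.08, 1.89, 0.884 and 2.01 FPKM in control 1 to 4 and 6.76, 5.76, 5.61 and 5.41 FPKM in ANG II 1 to 4. The lowest ANG II library lay well above the highest control library. Mean levels were 1.47 ± 0.566 FPKM in the control group and 5.89 ± 0.603 FPKM in the ANG II group (SD, n = 4 each, here and below), a ratio of 4.01, resting on 58 to 122 fragments per control library and 336 to 406 per ANG II library. Its log2 fold change was 1.51 (SE 0.163, limma adjusted p = 0.000133), rank 252 of the 19364 genes, and it was 1.36 above the median of all genes. The control libraries varied with a coefficient of variation of 38.6%, against 10.6% from counting alone, while the ANG II libraries varied by 10.2%.

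Inhbb encodes the βB chain of activin B and lies on chromosome 1 (119415465 to 119422248, minus strand). Its level was 1.41, 1.96, 0.709 and 1.38 FPKM in the control libraries and 2.00, 1.37, 2.77 and 2.32 FPKM in the ANG II libraries. The groups overlapped, since ANG II 2 lay below 3 of the 4 control libraries. A log2 fold change of 0.40 was measured (95% interval -0.03 to 0.83, limma adjusted p = 0.138), with an interval that held both no change and a rise above the threshold. With limma-voom it was 0.69 (95% interval 0.08 to 1.29, adjusted p = 0.0742) and with quantile normalization 0.13 (95% interval -0.28 to 0.55), so the size depended on the method and no fit called it. The ratio of Inhba to Inhbb within a library, computed as FPKM over FPKM, was 0.766 to 1.46 in the control group and 2.03 to 4.21 in the ANG II group. On log2(FPKM + 1) the ratio was 1.10 higher in the ANG II group, with no overlap of libraries (p = 0.0286 by a two-sided exact permutation test, which can go no lower with 4 against 4 libraries). After adjustment over the 6 ratios compared it was 0.0571, so it did not pass.

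Gdf15 encodes a stress-induced distant member of the superfamily that is released into blood and acts on a receptor of the hindbrain. It lies on chromosome 8 (70629393 to 70632456, minus strand). Its level was 3.12, 1.69, 2.23 and 3.44 FPKM in the control libraries and 8.30, 5.19, 3.35 and 8.69 FPKM in the ANG II libraries. ANG II 1, 2 and 4 lay above every control library, and ANG II 3 fell just below control 4. The coefficient of variation of the ANG II libraries was 40.1%, the highest of the 8 tested genes, against 8.3% from counting. Gdf15 was higher by a log2 difference of 0.98 ± 0.263 (SE; limma adjusted p = 0.0166). The call was lost without ANG II 1 (0.85, adjusted p = 0.0576), without ANG II 4 (0.83, adjusted p = 0.0553) and with quantile normalization (0.67, adjusted p = 0.0894). Its receptor gene Gfral was at 0 in all 8 libraries. Ret, listed with Gfral among the receptors and co-receptors below, was looked up after the fit. It lay at 2.49 ± 0.496 FPKM in the control group and 1.67 ± 0.390 FPKM in the ANG II group, with overlap. Limma did not call it (log2 fold change -0.39, adjusted p = 0.0694), and it was the 1 receptor that limma-voom called lower.

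Mstn encodes myostatin, the brake on skeletal muscle growth, which heart muscle makes at low level. It lies on chromosome 1 (53061640 to 53068079, plus strand). The libraries held 3, 1, 2 and 0 fragments in the control group and 4, 2, 2 and 2 in the ANG II group, or at most 0.102 FPKM. A count of 0 allows up to 3 fragments, which is 0.0701 to 0.0803 FPKM in these libraries, so a difference between the groups was not detectable at this depth. The gene was below the filter of the limma fit, and an exact permutation test of its log2(FPKM + 1) gave p = 0.314.

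Of the 3 BMP genes, Bmp4 and Bmp6 were tested and Bmp10 lay at the floor. Bmp4 encodes a ligand of vessel walls and mesenchyme and lies on chromosome 14 (46383520 to 46390669, minus strand). Its level was 4.33, 6.98, 3.19 and 5.67 FPKM in the control libraries and 8.02, 8.64, 7.40 and 6.66 FPKM in the ANG II libraries. The groups overlapped, since control 2 lay above ANG II 4. The rise was 0.56 on the log2 scale (95% interval 0.15 to 0.96, limma adjusted p = 0.0387), which was 0.41 above the median of all genes. The call stood on the threshold, and 11 of 17 alternative settings lost it, with log2 fold changes from 0.26 to 0.62 and adjusted p-values from 0.0528 to 0.315 in those 11. Leaving out any of control 1, 3 or 4 or any ANG II library was among these settings (adjusted p = 0.0528 to 0.103). Of its exon bases, 3.959% lay under the opposite-strand gene Gm15217, which had 0 or 1 fragment.

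Bmp6 encodes a ligand made by endothelial cells that is known for the control of iron through hepcidin. It lies on chromosome 13 (38345107 to 38500302, plus strand) and was the most abundant of the ligand genes. Its level was 22.6, 17.4, 20.4 and 20.1 FPKM in the control libraries and 19.7, 24.1, 21.9 and 19.9 FPKM in the ANG II libraries. The groups lay over each other. The difference was 0.09 on the log2 scale (95% interval -0.12 to 0.29, limma adjusted p = 0.499), an interval with both ends inside the threshold of 0.5. It was -0.06 relative to the median of all genes, and its sign turned with the scaling, to -0.12 with median-of-ratios scaling and -0.14 with quantile normalization. Of its exon bases, 5.744% lay under the opposite-strand gene Txndc5, which rose from 17.3 ± 1.32 to 33.9 ± 3.34 FPKM (log2 fold change 0.93, adjusted p = 4.19e-05). Whether strand was used in counting was not given, and the part of Txndc5 reads in the Bmp6 values was not tested. The log2 ratio of Bmp4 to Bmp6 was 0.47 higher in the ANG II group, with overlap (exact permutation p = 0.143, adjusted 0.171).

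Bmp10 encodes a ligand made by atrial muscle and lies on chromosome 6 (87428994 to 87437677, plus strand). It had 0 fragments in every control library, which allows up to 0.0403 to 0.0462 FPKM, and 2, 0, 1 and 0 fragments in the ANG II libraries. No difference was detectable. Of the other atrial genes, Myl7 and Myl4 were present in every group mean, at 12.0 ± 10.2 and 15.7 ± 11.3 FPKM in the control group and 47.6 ± 30.7 and 63.5 ± 45.9 FPKM in the ANG II group (limma adjusted p = 0.0557 for both). Of the 5 atrial genes tested, limma called 2 others higher and limma-voom called 4, and the median log2 fold change by limma was 1.74.

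Fst, Fstl1 and Fstl3 were all called higher, against 14.0% of all genes tested. The more distant follistatin-like genes Fstl4 and Fstl5 were counted among the other antagonists, and their values, looked up after the fit, were 0.329 ± 0.124 and 1.11 ± 0.437 FPKM in the control and ANG II groups for Fstl4 (log2 fold change 0.65, limma adjusted p = 0.00893, called higher) and 0 or 1 fragment per library for Fstl5, which was not tested. Fst encodes follistatin, the high-affinity binding protein of activins, and lies on chromosome 13 (114452290 to 114458951, minus strand). Its level was 0.363, 0.400, 0.493 and 0.343 FPKM in the control libraries and 2.04, 2.20, 1.27 and 0.913 FPKM in the ANG II libraries. All ANG II libraries lay above all control libraries, with ANG II 3 and 4 nearer to them. The control values rest on 9 to 14 fragments per library and the ANG II values on 25 to 60. The group means were 0.400 ± 0.0664 and 1.61 ± 0.613 FPKM, a ratio of 4.02. On log2(FPKM + 1) the fold change was 0.87 (SE 0.164, limma adjusted p = 0.00295). That scale understates a gene so low, and limma-voom on the recovered fragments gave 1.87 (95% interval 1.04 to 2.71). Of its exon bases, 2.506% lay under Gm47040, which was at 0 in all 8 libraries.

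Fstl3 encodes a follistatin-like protein that binds activins and myostatin and lies on chromosome 10 (79777272 to 79782630, plus strand). Its level was 1.20, 1.14, 1.14 and 1.14 FPKM in the control libraries and 5.16, 5.86, 3.74 and 4.85 FPKM in the ANG II libraries. All ANG II libraries lay far above all control libraries. A log2 fold change of 1.44 was found (SE 0.122, limma adjusted p = 3.65e-05), or 2.05 with limma-voom. The control libraries, with 23 to 26 fragments, differed by 2.8%, less than the 20.3% that counting alone gives at this depth, so that spread is no measure of precision. Of the exon bases of Fstl3, 47.32% lie under Prss57 on the opposite strand, which had 0 to 4 fragments per library.

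Fstl1 lies on chromosome 16 (37776873 to 37836514, plus strand). Its level was 121, 129, 93.0 and 138 FPKM in the control libraries and 724, 695, 550 and 581 FPKM in the ANG II libraries. The groups were far apart. Group means were 120 ± 19.6 and 638 ± 84.7 FPKM, a ratio of 5.29. In log2 units Fstl1 was 2.40 higher, with an SE of 0.129 (limma adjusted p = 3.96e-06), rank 54 of the 19364 genes. With 1689 to 12149 fragments per library, counting error was small, and the value hardly moved with limma-voom (2.41) or quantile normalization (2.28).

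**Figure D2:**
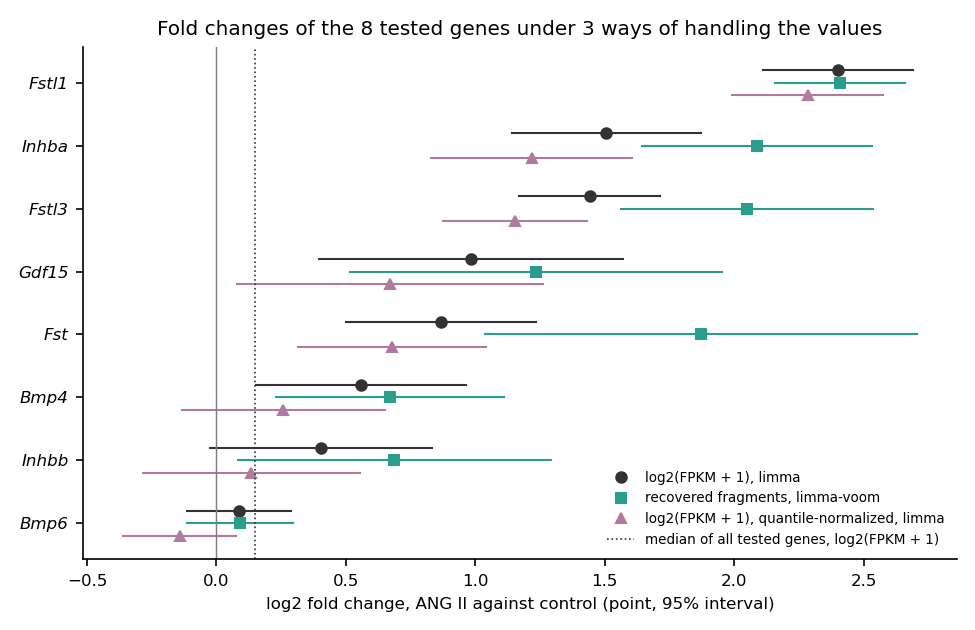
Log2 fold change of ANG II against control (horizontal axis) of the 8 tested genes with its 95% interval, from limma on log2(FPKM + 1) (circles), limma-voom on recovered fragments (squares) and limma on quantile-normalized values (triangles). The dotted line is the median of all genes, 0.15. Fstl1 gave 2.28 to 2.41 in all 3 fits, Fst 0.68 to 1.87, and Bmp6 lay on both sides of 0.

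Inhba was also set against the genes of its binding proteins within each library. The log2 ratio of Inhba to Fstl3 lay between -0.18 and 0.50 in the control group and between -0.02 and 0.48 in the ANG II group, and its mean was 0.06 higher in the ANG II group (exact permutation p = 0.743). The log2 ratio of Inhba to Fst was 0.64 higher, with overlap (exact permutation p = 0.0571, adjusted 0.0857), and 0.30 higher with a pseudocount of 0.1 in place of 1, where the low level of Fst weighs less on the value. On the FPKM scale the means of Inhba, Fst and Fstl3 rose 4.01-, 4.02- and 4.25-fold. The log2 ratio of Fstl1 to Fstl3 was 0.96 higher with no overlap (exact permutation p = 0.0286, adjusted 0.0571), and 0.43 higher with the pseudocount of 0.1. Without a pseudocount, as FPKM over FPKM, this ratio was 81.7 to 122 in the control group and 119 to 147 in the ANG II group, so the groups overlapped. The ratio of Mstn to Fstl3 fell by 1.41 on the log2 scale, which is the change of Fstl3 alone, since Mstn had at most 4 fragments.

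**Figure D3:**
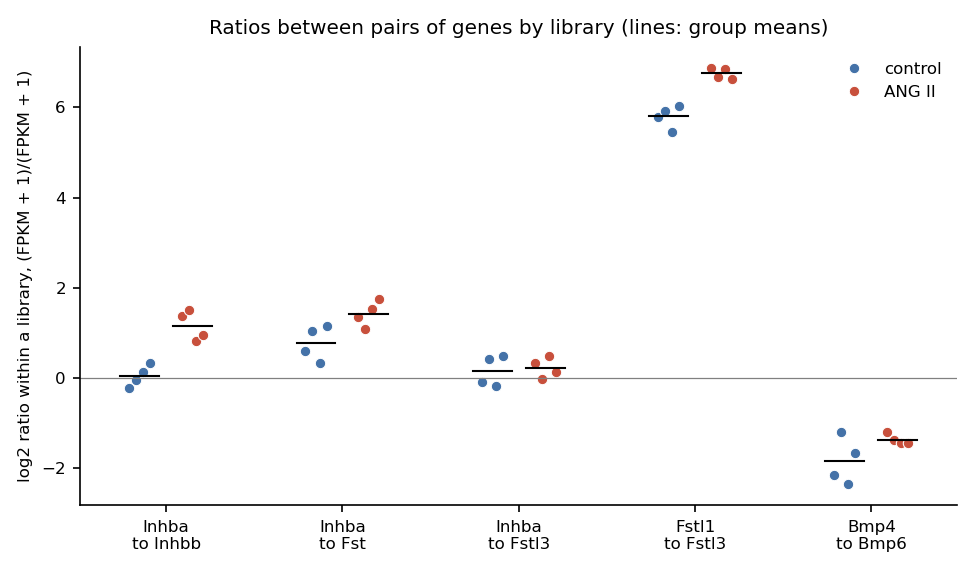
Log2 ratio of (FPKM + 1) between 2 genes within each library (vertical axis) for 5 pairs, in control (blue) and ANG II (red) libraries, with lines at the group means. The libraries of the groups do not overlap for Inhba to Inhbb and Fstl1 to Fstl3, and overlap for the other pairs.

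In length-scaled level, Fstl1 led in both groups, followed by Bmp6. In the control group Bmp4 and Gdf15 came next, and Inhba, Inhbb and Fstl3, at 1.47 ± 0.566, 1.37 ± 0.513 and 1.15 ± 0.0323 FPKM, were not apart beyond their spread. In the ANG II group Bmp4, Gdf15, Inhba and Fstl3 lay at 7.68 ± 0.847, 6.38 ± 2.56, 5.89 ± 0.603 and 4.90 ± 0.884 FPKM, where the ranges of mean ± SD of neighbours overlapped, and Inhbb and Fst lay lower. The deposited values use the mean length of a gene's transcripts, which for Fstl1 is 1096 bases while its longest transcript has 3789. With the longest transcript as the length, an option chosen after the data were seen, Fstl1 would be at 34.9 and 184 FPKM in the control and ANG II groups and still lead. In the ANG II group, Bmp6 would move from 21.4 to 9.64 FPKM, Bmp4 from 7.68 to 4.16 FPKM and Inhba from 5.89 to 3.65 FPKM. Gdf15 would then lie above Bmp4 in the ANG II group and Inhbb above Inhba in the control group, with the other genes in the same order. Of the 50-base words of Fstl1, 2.685% also occur in other transcripts, mostly of Gm10033.

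Markers of several other cells moved with the same groups. Over all genes tested, 14.0% were called higher and 1.41% lower, and a count of 1 or 2 in these short lists is not read against that share. Fibroblast genes were called higher in 6 of 7 (summed level 1031 to 1375 FPKM in the control and 1671 to 2025 FPKM in the ANG II libraries), with Col1a1 from 64.7 ± 17.2 to 608 ± 52.2 FPKM and Gsn at a log2 fold change of -0.50. Macrophage genes were called higher in 6 of 6, from 212 to 282 FPKM up to 473 to 668 FPKM. Erythroid genes were called higher in 5 of 5, from 96.8 to 486.7 FPKM up to 581 to 2083 FPKM. Endothelial genes were called higher in 2 of 6, from 351 to 372 FPKM up to 402 to 459 FPKM. Cardiomyocyte genes were called lower in 2 of 7. Atrial genes were called higher in 2 of 5 tested by limma and in 4 of 5 by limma-voom, with 4 of 5 higher at an unadjusted p under 0.05, and summed to 19.1 to 74.3 FPKM in the control and 81.0 to 265.4 FPKM in the ANG II libraries. Smooth muscle genes were called lower in 1 of 6, skeletal muscle genes higher in 1 of 3 tested, and mesothelial (5 tested) and adipocyte (3 tested) genes in 0, by limma, by limma-voom and at an unadjusted p under 0.05. The part of these cells in the rise of Inhba, Fst, Fstl1, Fstl3, Gdf15 and Bmp4 was not tested.

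The other genes of the pathway had lower median fold changes than the 0.92 of the genes above. The 10 genes and all lists were chosen with earlier results of these data known, so this gap can follow from the choice and was not tested. Other ligands of the family were called higher in 4 of 11 tested (median log2 fold change 0.08), receptors and co-receptors in 3 of 15 (0.11), other secreted antagonists and binding proteins in 4 of 13 (0.11), proteases that process the ligands in 2 of 7 (0.32), Smads and their regulators in 3 of 14 (0.30) and target genes of BMP signalling in 5 of 10 (0.43). Over all genes tested 14.0% were called higher and the median was 0.15, and on log2(FPKM + 1) the medians of the ligand, receptor and antagonist lists lay at -0.06, -0.03 and -0.04 relative to that of all genes, and the receptor and Smad counts lay near the share of all genes. By limma 0 were called lower, with 1 ligand, 1 receptor and 1 antagonist lower at an unadjusted p under 0.05, and limma-voom called 1 receptor and 1 antagonist lower. Those counts and medians depend on the method. With limma-voom on recovered fragments, where no 1 FPKM is added, the 6 counts were 5, 4, 4, 3, 4 and 5, and the ligand, receptor and antagonist medians were 0.86, 0.16 and 0.52, or 0.63, -0.07 and 0.29 relative to that of all genes. With quantile normalization the counts were 1, 0, 3, 1, 1 and 2, with 1 receptor and 1 antagonist called lower. The receptor and antagonist medians were then -0.05 and -0.02, while the median of all genes was -0.04. Relative to that of all genes they were -0.01 and 0.02. Leaving out 1 library also mattered: 1 receptor was called without control 2 or without ANG II 1, and 2 ligands were called without control 2 or without ANG II 3.

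Among the ligands, Gdf6, a factor of joint and skeletal patterning, rose from 0.281 ± 0.0740 to 2.40 ± 0.925 FPKM (log2 fold change 1.37, limma adjusted p = 0.000308). Bmp2 and Lefty1, an inhibitor of Nodal, had log2 fold changes of 0.55 and 0.53 at levels near or below 1.3 FPKM, and lost their calls in 6 and 5 of 16 alternative settings. Gdf3 and Bmp7 fall outside the rule for named genes and were chosen after their values were seen. Gdf3, which was called too, had 0 or 1 fragment in each control library and 7 to 12 in each ANG II library (0.52, adjusted p = 0.00167). Bmp7 was not called, although all 4 ANG II libraries lay below all 4 control libraries, at 0.893 ± 0.108 FPKM in the control group and 0.580 ± 0.119 FPKM in the ANG II group (-0.26, adjusted p = 0.0695).

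The receptors through which activin, myostatin and BMPs act did not pass the test in most cases. The type II receptors Acvr2a and Acvr2b, which bind activins, had log2 fold changes of 0.02 (SE 0.109) and 0.03 (SE 0.104), and their mean levels were 10.2 and 2.32 FPKM in the control group and 10.3 and 2.39 FPKM in the ANG II group. The BMP type I receptor Bmpr1a had 0.02 (52.7 ± 4.78 and 53.3 ± 3.54 FPKM), and the BMP type II receptor Bmpr2 had 0.16 (adjusted p = 0.0558). The signs of these 4 turned in other settings, down to -0.23, -0.28, -0.20 and -0.052. The activin type I receptor Acvr1b had 0.35 and did not reach the fold threshold (adjusted p = 0.0404). Acvr1, a type I receptor of BMPs, rose from 6.23 ± 0.494 to 11.1 ± 1.19 FPKM (0.74, adjusted p = 0.000243), and lost its call in 1 of 17 alternative settings, quantile normalization. The endothelial receptor Acvrl1 and the decoy receptor Bambi were called at 0.50 and 0.51, each on the threshold, and lost the call in 8 and 7 of 17 alternative settings.

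Of the binding proteins, Bmper, which binds BMPs outside the cell, rose from 2.03 ± 0.441 to 5.28 ± 1.28 FPKM (1.04, adjusted p = 0.000858), and Nbl1, a BMP antagonist of the DAN family, from 17.2 ± 4.14 to 34.7 ± 5.23 FPKM (0.98, adjusted p = 0.00108). Dcn, a proteoglycan of the matrix that is also in the fibroblast list, rose from 293 ± 37.7 to 489 ± 47.9 FPKM (0.74). Of the proteases, Bmp1, which cuts procollagens and the BMP antagonist chordin and is no BMP itself, rose from 14.3 ± 0.960 to 33.0 ± 2.20 FPKM (1.15), and Pcsk5, a proprotein convertase, from 0.810 ± 0.0958 to 1.72 ± 0.337 FPKM (0.58). The call of Pcsk5 was lost in 2 of 17 alternative settings, at 0.46 with median-of-ratios scaling and at 0.35 after quantile normalization.

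The inhibitory Smads were called higher. Smad7, which blocks activin, TGF-β and BMP signals, rose from 10.4 ± 2.33 to 19.8 ± 2.12 FPKM (0.88, adjusted p = 0.000821), and Smad6, which blocks mainly BMP signals, from 11.7 ± 1.70 to 18.2 ± 3.42 FPKM (0.58, adjusted p = 0.00827), a call lost in 4 of 17 alternative settings. Skil, a repressor of Smad transcription, had 0.73 and lost its call with quantile normalization. The BMP targets of the Id family, which hold back differentiation factors, were called in 2 of 4: Id2 rose from 6.38 ± 2.35 to 13.8 ± 1.89 FPKM (1.04) and Id3 from 50.6 ± 10.5 to 92.0 ± 9.82 FPKM (0.87), while Id1 lay at 43.4 ± 6.63 and 44.5 ± 7.29 FPKM (0.03, adjusted p = 0.872, and -0.18 in the lowest of 17 alternative settings). Id4, looked up after the fit, lay at 0.273 ± 0.106 and 0.365 ± 0.103 FPKM (0.10, adjusted p = 0.468). Msx1, another target, had 0.67 and also lost its call with quantile normalization.

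Gdf15 is known as a target of the integrated stress response, the program run by ATF4 when translation is slowed. Of 15 tested rows of that list, 7 were called higher (median log2 fold change 0.51), against 14.0% of all genes, and 3 with quantile normalization, which called 1 lower and, over all 19364 genes, 1418 higher. Limma called 0 lower, with 1 at an unadjusted p under 0.05, and limma-voom called 1. The 3 called genes with the largest fold change encode enzymes of serine and one-carbon metabolism. Mthfd2 rose from 3.31 ± 0.551 to 12.0 ± 1.61 FPKM (1.59), Phgdh from 1.11 ± 0.243 to 3.64 ± 0.722 FPKM (1.13) and Psat1 from 2.58 ± 0.879 to 5.69 ± 1.42 FPKM (0.91), and all 3 kept their call in 17 of 17 alternative settings. Of 2 other such enzymes in the list, looked up after the fit, Shmt2 lay at 32.5 ± 2.68 and 30.9 ± 0.415 FPKM (-0.07, adjusted p = 0.432) and Aldh1l2 at 4.26 ± 0.487 and 2.97 ± 0.50 FPKM (-0.41, adjusted p = 0.0238), below the fold threshold in this fit. Aldh1l2 was the gene of the list that limma-voom called lower, so it moved against the 3 enzymes above.

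**Figure D4:**
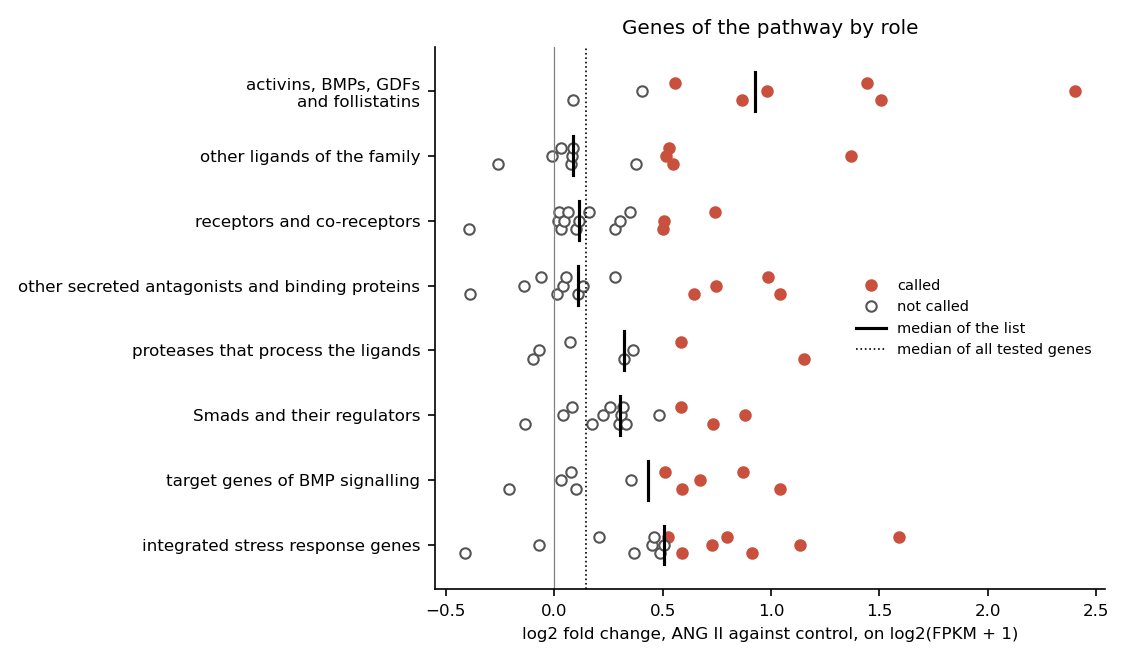
Log2 fold change of ANG II against control on log2(FPKM + 1) (horizontal axis) for the tested genes of each role, with the 8 tested activin, BMP, GDF and follistatin genes at the top. Filled points were called by limma and open points were not, solid bars are the list medians (0.92 at the top, 0.08 to 0.51 below), and the dotted line is the median of all genes, 0.15. The genes and lists were chosen with earlier results of these data known.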

How the data were processed

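Left ventricular mRNA of the 4 control and 4 ANG II samples was enriched on oligo(dT) and sequenced in pairs of reads. The authors deposited 1 table of FPKM values (fragments scaled by transcript length and depth), 1 column per library. The submitters' processing notes name Bowtie2, HISAT and RSEM. Versions, genome build, annotation and strand setting were not given in the sources used here. Groups came from the treatment labels. The study calls the samples biological replicates and states more per group than the 8 libraries analysed here.

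Values were tested with limma 3.58.1 in R 4.3.3 (lmFit, eBayes with trend) on log2(FPKM + 1), for genes whose mean reached 0.1 FPKM, without covariates. P-values were two-sided and Benjamini-Hochberg adjusted over 19364 genes. Calls needed an adjusted p-value under 0.05 and an absolute log2 fold change above 0.5. Fold changes on this scale understate those of low genes. Ratios of 2 genes were compared by exact permutation over 70 allocations. Fragments were recovered from FPKM steps with GENCODE M21 lengths (99.24 to 99.34% of values under 60 fragments whole within 0.05 for genes with 1 exon, 97.61 to 98.07% for others). Intervals and floors (3 fragments) cover counting error only. The fit was tested on simulated data. Alternatives were other pseudocounts, filters, scalings, thresholds, a replicate block, limma-voom and leaving out each library. The 10 genes and all lists were chosen with earlier results of these data known. Named pathway genes were up to 3 called genes of each list with the largest fold change, plus 7 receptors and 5 target genes, called or not. Hjv had no row under that symbol, and Ddit3 had 2. Promoters came from RefSeq.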

Additional observations from a re-analysis of the deposited data

Results flagged for a closer look

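Among 19 groups of 4 values, 2 held a library far from the other 3, and chance alone gives about 1 in 20. For Mstn, ANG II 1 lay at 0.102 FPKM, which is 4 fragments against 2 in each of the other ANG II libraries. For Fstl3, control 1 lay at 1.20 FPKM against 1.14 FPKM in the other 3 control libraries, or 24 fragments against 23 to 26. Both gaps are within counting error.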

How the results depend on the processing

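Across 17 alternative settings at the same call thresholds, Inhba, Fst, Fstl1 and Fstl3 kept their direction and call, with log2 fold changes of 1.22 to 2.09, 0.68 to 1.87, 2.18 to 2.47 and 1.15 to 2.05. Gdf15 lost its call in 3 settings and Bmp4 in 11, and Inhbb was called in none (0.13 to 0.69). Bmp6 turned to -0.12 with median-of-ratios scaling, -0.14 with quantile normalization and -0.054 without mitochondrially encoded and top 10 genes. Of the 10 genes, 6 were called in the reported fit, 5 with median-of-ratios scaling, 4 with quantile normalization, 4 to 6 when a library was left out and 3 at an absolute log2 fold change above 1. Over all genes, 2981 were called, 6447 by adjusted p-value alone and 795 at an absolute log2 fold change above 1. Of the calls, 90.84% were higher, against 68.52% with median-of-ratios scaling and 59.11% with quantile normalization, which moved the median of all genes to 0.01 and -0.04. The pathway lists held 28 calls, and 14 with quantile normalization. A replicate block gave 2968 calls and 6 of the 10 genes, and changed no call of these genes. The replicate numbers do not pair the libraries (correlations of deviations -0.032 to 0.062 for the same number, -0.088 to 0.094 for different numbers). Left-out libraries took the log2 ratio of Inhba to Fstl3 from -0.051 to 0.175 and that of Bmp4 to Bmp6 from 0.30 to 0.68 (0.684 without control 2, exact permutation p = 0.0286). The cause of these changes was not tested. Depth limits Mstn and Bmp10, at 0 to 4 fragments per library, and the control level of Fst.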
